A study of Mus musculus with 48 samples.

Results

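The effect of a guide RNA against Zfp219 on chromatin accessibility was measured in Ttad cells from tumours of aged mice. The comparison rests on the 2 Zfp219 and the 2 OTC control libraries of that state, 4 of the 48 libraries in the series, and every one of the 53868 peaks was tested. All cells were Cas9-expressing OT-1 CD8+ T cells, whose receptor sees an ovalbumin peptide, taken from B16-OVA tumours, a mouse melanoma that expresses ovalbumin, 15 days after inoculation. The Zfp219 group is labelled Zfp219KO and the control OTC control. Both carried a lentiviral guide with an ametrine reporter and CD45.1, and both went into aged hosts, whose age in months the labels do not give. Ttad cells were sorted as lacking both Slamf6 and the Havcr2 product Tim-3, and carry the label age-associated dysfunctional. The aged Tprog (Slamf6 alone), Ttran (both) and Tterm (Tim-3 alone) libraries of the same guides, aged Ttad libraries with a Dusp5 guide (Dusp5KO), and young OTC Tprog and Tterm libraries serve for comparison. Cells of several mice were pooled into each library, 5000 to 50000 of them, editing of the target was not measured here, and all Ttad libraries came from aged hosts.

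Zfp219 encodes a C2H2 zinc-finger protein, a class of factors that bind DNA directly. In T cells of tumours and chronic infection, prolonged antigen exposure is accompanied by a loss of open sites near stem-like and memory genes and a gain near effector and exhaustion genes. ATAC-seq reads this through the Tn5 transposase, which inserts adapters where DNA is accessible, so a peak that rises has gained insertions and says nothing by itself of transcription.

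The libraries differed in depth along with the groups. The Zfp219 libraries held 15723953 and 15700492 reads in peaks and the OTC libraries 8059981 and 10929698. Promoter peaks took 41.0% and 41.3% of the reads with the Zfp219 guide against 39.2% and 39.0% with OTC, and unplaced scaffolds 1.001% and 0.979% against 1.31% and 1.33%. The part of these differences in the results was not tested beyond the thinned fit given below. The label CD8 T cell was checked against markers, and all 8 genes of the CD8 T cell list had peaks. No peak was assigned to Ms4a1, Cd79a or Cd79b (B cells), Csf1r, Lyz2 or Adgre1 (myeloid cells), Foxp3, or the pigment genes Tyr, Tyrp1 and Dct. Other genes of the lineage lists did have peaks: 2 of 6 B cell, 5 of 8 myeloid and 2 of 3 CD4 and regulatory T cell genes. So did 3 of 3 NK cell, 4 of 8 melanoma and 6 of 7 stromal and endothelial genes. Having peaks thus does not by itself tell CD8 T cells from these lineages. Of the other lineages' lists, 0 of 15 myeloid, 0 of 7 melanoma and 0 of 21 stromal and endothelial peaks were called by limma or by edgeR. Both tools called 1 of 9 B cell peaks lower (Ebf1), 1 of 6 CD4 and regulatory T cell peaks higher (Zbtb7b) and 1 of 15 NK cell peaks higher (Klrb1c). The Zbtb7b call was lost without each of the 4 libraries in turn (limma adjusted p 0.065 to 0.19), and the Ebf1 call without either OTC library or Zfp219 replicate 2 (0.070 to 0.26). The summed normalized reads of the 7 melanoma peaks were 1073 and 1093 with the Zfp219 guide and 1251 and 1498 with OTC. Those of the 9 B cell peaks were 683 and 610 against 932 and 896, and those of the 15 NK cell peaks 4193 and 4252 against 3925 and 3827. Those of the 6 CD4 and regulatory T cell peaks were 1640 and 1544 against 1472 and 1534. Their part in the results was not tested, and in bulk samples fewer cells of a type and fewer insertions per cell cannot be told apart.

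With the Zfp219 guide, 1973 peaks were more accessible and 2459 less accessible than with OTC. These are 3.66% and 4.56% of all peaks, 8.23% together (limma on log2(value + 1), Benjamini-Hochberg adjusted p under 0.05, n = 2 libraries a group). The median change of a called peak was 0.66 on the log2 scale for rises, or 1.58-fold, and 0.73 in size for falls, or 1.65-fold. At least a doubling was reached by 601 rises (1.12%) and at least a halving by 681 falls (1.26%). Over all peaks the median log2 fold change was 0.003. The spread behind the p-values is pooled over all 48 libraries in 21 groups, other states and young hosts included, and drawn toward a trend with level. It is a spread between libraries, which may be technical, as no record shows which mice entered which pool. Fitted on the compared groups alone, 1234 peaks were called higher and 2513 lower.

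The weak peaks carried a share of the rises that the count-based test did not keep. Where the OTC mean was under 20 normalized reads, limma called 310 peaks higher and 36 lower, and edgeR's quasi-likelihood test on the recovered whole reads called 183 and 20. Where it was over 100, limma called 1209 higher and 2131 lower and edgeR 1132 and 2301. The OTC mean is 1 arm of the fold change, so grouping by it partly sets the balance of rises and falls. These counts therefore compare the tools at a level and not the directions between levels. In simulated data limma called too many unchanged peaks, mostly weak ones, and edgeR fewer, so the calls made by both are given beside those of limma. Both tools called 1625 peaks higher and 2366 lower, 3991 of limma's 4432. The count of 4432 fell to 2265 without OTC replicate 1, 3149 without OTC replicate 2, 1949 without Zfp219 replicate 1 and 1745 without Zfp219 replicate 2, and to 2632 with all libraries thinned to the smallest total of the series. Without OTC replicate 2 more peaks were higher (1671) than lower (1478). With 1 library fewer nearly every count of calls fell, so the counts given below for 1 library left out are ranges over the 4 libraries, with the lowest one named.

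Promoter peaks, those that overlap the 300 bases around an annotated start, had more called rises than falls, and most of them were not called. Of 9253 promoter peaks 453 were called higher and 142 lower, and 421 and 139 by both tools, with a median log2 fold change of 0.08. Of 25390 peaks in gene bodies 912 rose and 1240 fell, and of 16465 intergenic peaks within 100 kb of a gene 526 rose and 882 fell. More promoter peaks rose than fell under each scaling tried: 331 against 93 after quantile normalization, 298 against 203 after rescaling on strong peaks, and 448 against 155 by edgeR's TMM. Leaving out any 1 of the 4 libraries gave 102 to 331 higher (102 without Zfp219 replicate 2) and 56 to 100 lower (56 without OTC replicate 1). The reads in promoter peaks were also a larger share in both Zfp219 libraries, as given above, which cannot be told apart from a rise of many promoters.

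The promoters described next are the 6 of lowest adjusted p in each direction, chosen after their values were seen, with Gzma and St6gal1 from the rule for named genes. Zfp652, another zinc-finger gene, had the clearest rise: its promoter peak (chromosome 11, 95747975 to 95749126) held 283 and 240 normalized reads with the Zfp219 guide, 75.5 and 80.1 with OTC, and 108 and 110 with the Dusp5 guide. Both Zfp219 libraries were thus above all 4 others, and the log2 fold change was 1.73 (SE 0.17, limma adjusted p = 2.4e-12, edgeR adjusted p = 4.9e-12). Tgtp2, which encodes an interferon-inducible GTPase, rose from 52.0 and 61.6 to 150 and 142 (log2 fold change 1.35, SE 0.24, limma adjusted p = 4.5e-05). Tinf2, a subunit of the telomere-capping shelterin complex, rose from 709 and 593 to 962 and 969 (0.57, SE 0.10, limma adjusted p = 5.0e-05). The promoters of Rasal3, Smg5 and the cohesin gene Smc3 rose by 0.60, 0.52 and 0.46 on the same scale. Gzma, a granule protease, rose at its promoter from 166 and 192 to 283 and 294 (0.69, SE 0.18, limma adjusted p = 0.0076), a call that was lost, with adjusted p up to 0.12, when OTC replicate 1 or either Zfp219 library was left out.

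Among promoters that fell was that of a downstream start of St6gal1, a sialyltransferase of the cell surface. Its peak went from 548 and 425 reads with OTC to 179 and 194 with the Zfp219 guide (log2 fold change -1.37, SE 0.24, limma adjusted p = 2.3e-05). The Dusp5 libraries had 236 and 271 there, between those of the other guides. A stronger St6gal1 promoter peak, at 23223203 to 23226726, fell less, from 929 and 790 to 590 and 657 (-0.46, SE 0.11, limma adjusted p = 0.0041). Hspa1b, an inducible Hsp70 chaperone, fell from 1316 and 1418 to 1000 and 940 (-0.49, SE 0.06, limma adjusted p = 3.7e-08), and Hspa1b has a near-identical neighbour, Hspa1a, so its reads could be split between the copies. The promoter of Tnk2, a cytoplasmic tyrosine kinase, fell from 731 and 788 to 425 and 369, and that of Ccr8, a chemokine receptor, from 2096 and 1988 to 1468 and 1356 (-0.94 and -0.53, limma adjusted p = 5.3e-06 and 7.7e-06). Those of Kcnk10, G3bp1 and Osbp fell by 0.50, 0.36 and 0.37 on the log2 scale, and for these 3 the Dusp5 libraries held 1367 and 1198, 1897 and 1932, and 1965 and 1823, all below OTC.

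The following promoters are shown because their peaks moved and their letters differ; each is the 250 bases before the start, from RefSeq on GRCm38.p6 (mm10), written 5′ to 3′ on the gene's strand, with the capitals marking matches to the motifs spelled out after them. Zfp652 (chr11:95748817-95749066, plus strand), Tgtp2 (chr11:49064213-49064462, minus strand), Tinf2 (chr14:55681818-55682067, minus strand) and Gzma (chr13:113100982-113101231, minus strand) rose, and St6gal1 (chr16:23290220-23290469, plus strand) and Hspa1b (chr17:34959239-34959488, minus strand) fell.
Zfp652: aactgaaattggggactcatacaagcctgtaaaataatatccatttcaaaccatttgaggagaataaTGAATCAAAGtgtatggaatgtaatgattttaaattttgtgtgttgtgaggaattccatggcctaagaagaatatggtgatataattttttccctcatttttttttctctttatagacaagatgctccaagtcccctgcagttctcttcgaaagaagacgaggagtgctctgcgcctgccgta
Tgtp2: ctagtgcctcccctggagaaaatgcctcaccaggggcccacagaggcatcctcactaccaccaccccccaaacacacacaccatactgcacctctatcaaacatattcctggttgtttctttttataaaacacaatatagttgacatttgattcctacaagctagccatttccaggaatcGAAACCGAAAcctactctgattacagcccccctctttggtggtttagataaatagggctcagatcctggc
Tinf2: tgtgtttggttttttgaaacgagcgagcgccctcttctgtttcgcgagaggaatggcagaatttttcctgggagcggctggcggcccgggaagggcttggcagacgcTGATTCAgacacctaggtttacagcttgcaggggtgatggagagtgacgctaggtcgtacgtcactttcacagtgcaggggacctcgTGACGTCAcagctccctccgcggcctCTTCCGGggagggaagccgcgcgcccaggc
Gzma: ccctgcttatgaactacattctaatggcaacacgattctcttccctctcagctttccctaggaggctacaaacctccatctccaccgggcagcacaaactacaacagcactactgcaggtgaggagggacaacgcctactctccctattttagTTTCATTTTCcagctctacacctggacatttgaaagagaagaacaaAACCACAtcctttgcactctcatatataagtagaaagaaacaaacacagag
St6gal1: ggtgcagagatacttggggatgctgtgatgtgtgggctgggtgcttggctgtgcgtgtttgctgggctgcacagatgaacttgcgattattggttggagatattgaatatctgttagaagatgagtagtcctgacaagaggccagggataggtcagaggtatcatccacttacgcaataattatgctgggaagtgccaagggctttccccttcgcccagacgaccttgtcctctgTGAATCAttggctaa
Hspa1b: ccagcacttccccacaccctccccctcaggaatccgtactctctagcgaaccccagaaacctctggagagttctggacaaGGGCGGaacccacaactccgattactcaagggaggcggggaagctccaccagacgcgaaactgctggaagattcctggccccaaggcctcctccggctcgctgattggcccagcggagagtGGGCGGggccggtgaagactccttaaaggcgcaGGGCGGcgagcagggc

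The matches were read for 8 motifs on both strands in 300-base windows. Capitals mark an AP-1 match (TGANTCA) in Zfp652, Tinf2 and St6gal1, a TCF/LEF match (CTTTGAT) that overlaps the AP-1 match in Zfp652, an interferon-stimulated response match in Tgtp2 and Gzma, a RUNX match (TGTGGTT) in Gzma, cyclic AMP response (TGACGTCA) and ETS (CCGGAAG) matches in Tinf2, and SP/KLF matches (GGGCGG) in Hspa1b. Promoters named above but not printed had fewer kinds of match in their 250 bases. Those of Smg5, Tnk2, Ccr8 and Kcnk10 had none of the 8 motifs, and those of Rasal3, Smc3, G3bp1 and Osbp had SP/KLF matches alone. The interferon-stimulated response letters (GAAA, any 2 bases, GAAA) stood in 6.36% of the 645 windows in peaks that rose, 2.36% of the 212 in peaks that fell and 2.99% of all 12521 windows in promoter peaks. The cyclic AMP response letters stood in 6.67%, 1.89% and 3.40%, and the ETS letters in 23.1%, 8.49% and 18.9%. AP-1 letters went the other way, with 3.72%, 5.66% (12 windows) and 4.46%. RUNX letters stood in 4.34%, 6.60% (14 windows) and 3.61%, so rises and falls were both above all windows in promoter peaks. SP/KLF letters were near the same share in each, at 63.7%, 67.0% and 67.6%, and TCF/LEF and NF-kappa-B letters were in at most 2.204%. Over all 32851 windows of the table, promoter peaks or not, these shares were 3.44% for the interferon-stimulated response, 1.79% for the cyclic AMP response, 8.86% for ETS, 7.81% for AP-1, 5.27% for RUNX and 35.7% for SP/KLF. These are shares of letters with no test, windows of 1 gene with several starts overlap, and the median GC content of the windows was 61.3% in rises and 60.8% in falls.

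**Figure D1:**
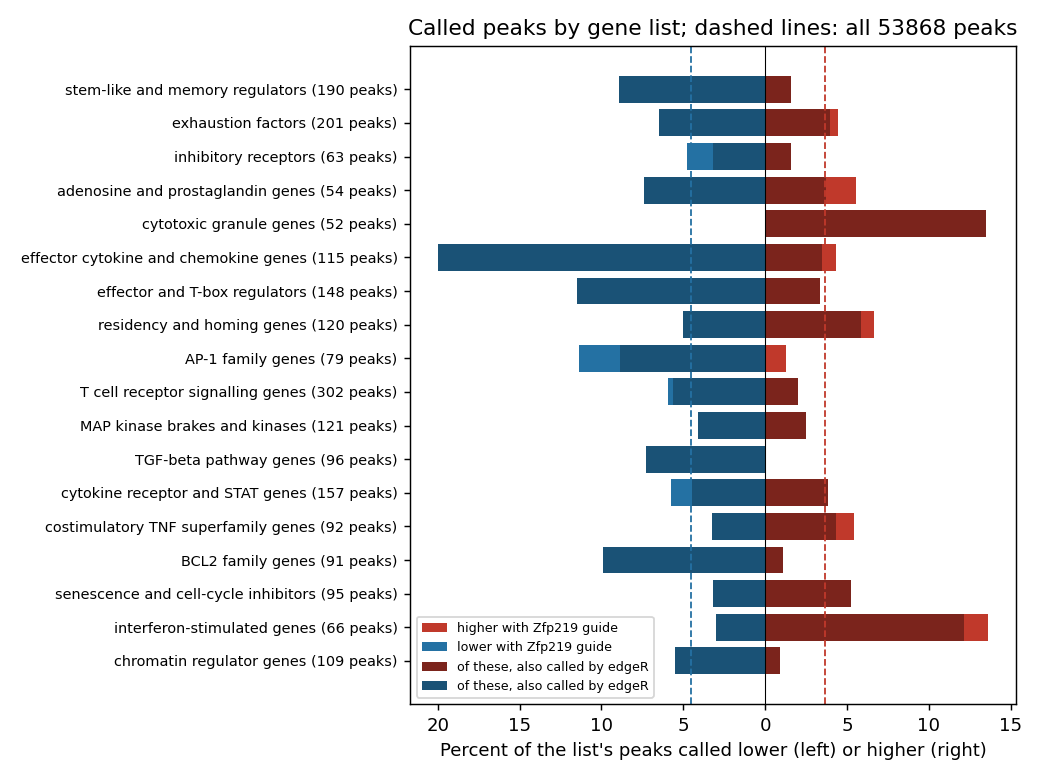
Percent of the peaks of 18 gene lists, lineage marker lists not included, called by limma as higher (right) or lower (left) with the Zfp219 guide in aged Ttad, with the part also called by edgeR in the darker shade and the list's number of peaks in its label. Dashed lines mark the share over all 53868 peaks, 3.66% higher and 4.56% lower: among these 18 lists effector cytokine and chemokine genes reach furthest to the left, and cytotoxic granule and interferon-stimulated genes furthest to the right.

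Peaks of effector cytokine and chemokine genes had the highest share of falls among the 18 gene lists, lineage marker lists not counted. Of 115 peaks near these 12 genes 23 were called lower and 5 higher (23 and 4 by both tools), with a median log2 fold change of -0.06, against 0.003 over all peaks. These are 20% and 4.35%, against 4.56% lower and 3.66% higher over all peaks. Most falls were at peaks outside the genes, given to them as the nearest gene within 100 kb. Of the 23 peaks in a gene body or promoter 2 were lower and 3 higher. Leaving out any 1 library left 13 to 16 lower (13 without Zfp219 replicate 2) and 1 to 3 higher. The falls lay at Csf2, the gene of the myeloid growth factor GM-CSF (8 of 12 peaks), at Xcl1, which draws cross-presenting dendritic cells (5 of 18), at Tnfsf10, the death ligand TRAIL (4 of 11), and at Il2, the T cell growth factor (3 of 6), with 1 each at Ifng, Il10 and Il21. The rises were at Ifng (2), Ccl4 (2) and Ccl5 (1).

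The Csf2 peak with the lowest adjusted p (chromosome 11, 54217012 to 54217909, 29361 bp from the gene) held 153 and 178 normalized reads with the Zfp219 guide, 364 and 307 with OTC and 208 and 221 with the Dusp5 guide. The Zfp219 values were the lowest and did not overlap with OTC (log2 fold change -1.01, SE 0.19, limma adjusted p = 8.9e-05). The Il2 peak (chromosome 3, 37172987 to 37175105, 47033 bp away) held 421 and 447 against 842 and 700, with Dusp5 between at 604 and 548 (-0.82, SE 0.13, limma adjusted p = 4.4e-06). The Il2 promoter peak was not called (0.25, SE 0.35, limma adjusted p = 0.73), and that of Csf2 was lower (-0.73, SE 0.14, limma adjusted p = 0.00015). Xcl1 (chromosome 1, 164965809 to 164966846) had 980 and 905 against 1343 and 1384 (-0.53, SE 0.09, limma adjusted p = 9.1e-06). At Tnfsf10 (chromosome 3, 27310727 to 27311753) the Zfp219 libraries had 337 and 365, below OTC at 584 and 610 and Dusp5 at 678 and 545 (-0.77, SE 0.14, limma adjusted p = 7.2e-05). These 4 calls held with each of the 4 libraries left out in turn and by edgeR.

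Genes of the AP-1 family, whose products bind the AP-1 letters after antigen stimulation, also had more falls than rises. Lower calls were 11.4% of the list's peaks and higher calls 1.27%, against 4.56% and 3.66% of all peaks. Of 79 peaks 9 were called lower and 1 higher (7 and 0 by both tools), the median was -0.13, and 6 to 9 were lower (6 without OTC replicate 1 or Zfp219 replicate 1) and 0 higher with 1 library left out. The Jun peak (chromosome 4, 95035093 to 95036877, 12159 bp from the gene) held 266 and 263 normalized reads with the Zfp219 guide, 533 and 462 with OTC and 462 and 460 with Dusp5. The Dusp5 values lay with OTC here, unlike at Csf2 (log2 fold change -0.91, SE 0.15, limma adjusted p = 1.3e-05). Of 8 Jun peaks 3 were lower. The Jun promoter peak, with 2259 and 2429 against 2594 and 2540, was not called (-0.13, SE 0.06, limma adjusted p = 0.18). Batf3, inside the gene body (chromosome 1, 191099893 to 191100864), had 153 and 171 against 342 and 303, with Dusp5 at 305 and 282 (-0.99, SE 0.16, limma adjusted p = 4.0e-06). Mafk and Atf3 had 1 call each, of 3 and 6 peaks, with gene medians of 0.15 and -0.08. Mafk fell by 0.41 (limma adjusted p = 0.0061, 0.12 without OTC replicate 1 and 0.16 without Zfp219 replicate 1), and a weak Atf3 peak had 113 and 45.2 against 137 and 126 and was not called by edgeR (adjusted p = 0.084).

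**Figure D2:**
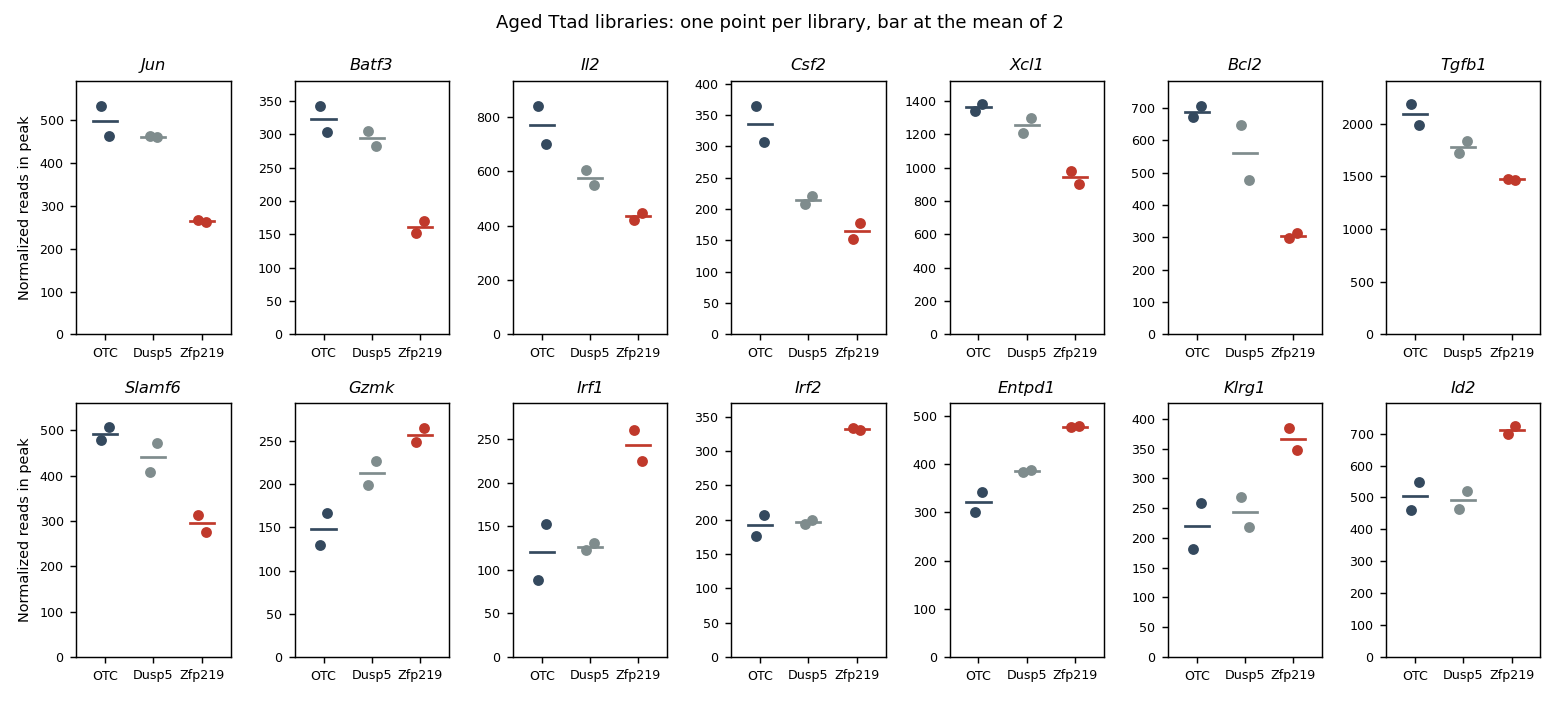
Normalized reads (vertical axis, from 0) of 14 named peaks in each aged Ttad library, with 1 point per library and a bar at the mean of the 2 libraries of a guide. The Zfp219 points lie below both OTC points from Jun to Slamf6 and above them from Gzmk to Id2, and the Dusp5 points lie next to OTC at Jun, Batf3 and Irf2 and between the guides at Csf2 and Entpd1.

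Peaks of stem-like and memory genes were called lower more often than higher, with lower calls at 8 of the 16 genes. Lower calls were 8.95% of the list's peaks and higher calls 1.58%, against 4.56% and 3.66% of all peaks. Of 190 peaks 17 were called lower and 3 higher, by both tools alike, with a median of -0.04, and leaving out 1 library left 7 to 10 lower (7 without Zfp219 replicate 2) and 0 to 2 higher. Of these falls 7 lay at Ccr7, the lymph node homing receptor, where 10 of 11 peaks had a log2 fold change below 0. Its peak in the gene body (chromosome 11, 99142416 to 99145031) had 520 and 583 normalized reads with the Zfp219 guide and 993 and 912 with OTC (log2 fold change -0.79, SE 0.13, limma adjusted p = 9.0e-06). Slamf6, a marker used in the sort, had 313 and 276 against 478 and 506 at a peak 1031 bp from the gene (chromosome 1, 171915612 to 171916427; -0.74, SE 0.15, limma adjusted p = 0.00035), and both groups were gated negative for the protein. This was the 1 call among 6 Slamf6 peaks, and the promoter peak was not called (-0.17, SE 0.18, limma adjusted p = 0.64). At Id3, a repressor of E proteins, the Zfp219 libraries had 405 and 291 and OTC 672 and 565 (-0.84, SE 0.18, limma adjusted p = 0.00053), a call lost without Zfp219 replicate 2 (adjusted p = 0.10). Bach2 had 3 lower peaks of 35 and Myb 1 of 14, Lef1 had 1 in each direction, and the 2 called peaks of S1pr1 rose. No peak was called at Tcf7 (of 12), Foxo1 (of 19), Ikzf1 (of 18), Satb1 (of 9), Klf2, Bcl6 or Il7r (of 5 each).

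The BCL2 family, which sets the threshold for mitochondrial cell death, had 9 lower peaks and 1 higher of 91, by both tools alike. The median was -0.20, and the shares were 9.89% lower and 1.10% higher, against 4.56% and 3.66% of all peaks. With 1 library left out 3 to 5 were lower (3 without OTC replicate 1 or Zfp219 replicate 2). A Bcl2 peak in the gene body (chromosome 1, 106560909 to 106562153) held 298 and 312 normalized reads with the Zfp219 guide, 672 and 705 with OTC and 646 and 478 with Dusp5 (log2 fold change -1.17, SE 0.14, limma adjusted p = 3.7e-09). Bcl2 itself prevents death, and 4 of its 23 peaks fell. Falls were also at Bcl2l1 (2), Mcl1 (1) and Bcl2a1b (1), further survival genes, and at Bcl2l11 (1), which promotes death and went from 114 and 144 to 60.2 and 45.2 (-1.28, SE 0.28, limma adjusted p = 0.0010; 0.060 without Zfp219 replicate 2). The single rise was at the promoter of the death gene Bbc3 (1282 and 1249 against 1070 and 1030; 0.27, SE 0.08, limma adjusted p = 0.031), and it was lost without each of the 4 libraries in turn (adjusted p 0.085 to 0.18).

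TGF-beta pathway genes, which restrain T cell effector function, had 7 lower peaks of 96 and no higher one, by both tools, with a median of -0.03 and 2 to 7 lower with 1 library left out (2 without Zfp219 replicate 2). The 7 falls were 7.29% of the list's peaks, against 4.56% lower and 3.66% higher over all peaks. At Tgfb1, the ligand, a peak 2021 bp from the gene (chromosome 7, 25707098 to 25708539) had 1476 and 1467 normalized reads against 2190 and 1987 with OTC (log2 fold change -0.50, SE 0.08, limma adjusted p = 3.8e-06). At Tgfbr2, a receptor subunit, 4 of 21 peaks fell, one of them from 288 and 307 to 105 and 154 (chromosome 9, 116152701 to 116153662; -1.22, SE 0.24, limma adjusted p = 0.00018). The inhibitor Skil and the co-receptor Tgfbr3 had 1 lower peak each, of -1.54 and -0.59, both lost without Zfp219 replicate 2 (limma adjusted p = 0.064 and 0.17), the first also without OTC replicate 2 (0.094) and the second without OTC replicate 1 (0.074).

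T cell receptor signalling genes had 18 lower and 6 higher peaks of 302 (17 and 6 by both tools). These are 5.96% and 1.99%, against 4.56% and 3.66% of all peaks. With 1 library left out 6 to 12 were lower (6 without OTC replicate 1), and without OTC replicate 2 13 were higher and 12 lower. Cd247, the zeta chain, fell from 1880 and 1913 to 1416 and 1469 (log2 fold change -0.39, SE 0.08, limma adjusted p = 0.00026), and Ptprc and Fyn peaks fell by 0.48 and 0.46. Of 157 cytokine receptor and STAT peaks 9 were lower and 6 higher (7 and 6 by both tools), and with 1 library left out 4 or 5 were lower and 1 to 5 higher (1 without either Zfp219 replicate). The shares of this list were 5.73% lower and 3.82% higher, near the 4.56% and 3.66% of all peaks. A Stat3 peak fell from 527 and 541 to 378 and 350 (-0.55, SE 0.12, limma adjusted p = 0.0011). All 4 called peaks of Ifngr1, a chain of the interferon gamma receptor, rose; the one of lowest adjusted p, a weak peak, went from 18.4 and 13.6 to 50.0 and 59.7 (1.73, SE 0.45, limma adjusted p = 0.0073) and was not called without OTC replicate 2 (0.084) or Zfp219 replicate 2 (0.098).

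Effector and T-box regulators were divided by gene. Lower calls were 11.5% of the list's peaks and higher calls 3.38%, against 4.56% and 3.66% of all peaks. Of 148 peaks 17 fell and 5 rose, by both tools, with 7 to 13 lower (7 without Zfp219 replicate 2) and 1 to 5 higher with 1 library left out. Runx3, a factor of the CD8 lineage, had 6 lower peaks of 23. Stat4, which acts below the interleukin-12 receptor, had 5 lower and 1 higher of 19, including a fall from 696 and 695 to 431 and 472 normalized reads (chromosome 1, 52055666 to 52056728; log2 fold change -0.62, SE 0.11, limma adjusted p = 7.0e-05). The Runx3 peak of lowest adjusted p, 43010 bp from the gene, fell from 1320 and 1127 to 883 and 918 (-0.44, SE 0.09, limma adjusted p = 0.00026; 0.058 without OTC replicate 1). Klrg1, a receptor of short-lived effector cells, had 384 and 347 with the Zfp219 guide against 181 and 259 with OTC and 268 and 219 with Dusp5 (chromosome 6, 122268882 to 122270700; 0.75, SE 0.14, limma adjusted p = 0.00011), and lost its call without OTC replicate 1 (adjusted p = 0.070). At Zeb1, a repressor, a peak fell from 293 and 159 to 66.1 and 61.4 (-1.75, SE 0.31, limma adjusted p = 3.4e-05).

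Among cytotoxic granule genes, all called peaks were rises, at 4 of the 12 genes. Of 52 peaks 7 were called higher and 0 lower, by limma and by edgeR, with a median of 0.03, 13.5% against the 3.66% of all peaks. With 1 library left out 1 to 4 were higher (1 without OTC replicate 1) and 0 or 1 lower, and rescaling on strong peaks gave 6 higher and 1 lower. Of the rises 3 lay at Gzmk (of 4 peaks), 2 at Gzmb (of 9) and 1 each at Gzma and Fasl. A peak 977 bp from Gzmk, a granzyme of memory-like and early effector cells (chromosome 13, 113169708 to 113170653), held 249 and 265 normalized reads with the Zfp219 guide, 129 and 166 with OTC and 199 and 227 with Dusp5 (log2 fold change 0.81, SE 0.15, limma adjusted p = 8.9e-05), and it was called without each library. The Gzmb peak went from 106 and 94.9 to 162 and 169 (0.72, SE 0.21, limma adjusted p = 0.020). The Fasl peak went from 258 and 244 to 337 and 355 (0.46, SE 0.16, limma adjusted p = 0.049). Both were lost without each of the 4 libraries in turn (adjusted p 0.058 to 0.25).

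Interferon-stimulated genes rose at 9 of 66 peaks and fell at 2 (8 and 2 by both tools), with a median of 0.11. These are 13.6% and 3.03%, against 3.66% higher and 4.56% lower over all peaks. With 1 library left out 3 to 10 were higher (3 without Zfp219 replicate 2) and 1 or 2 lower. The rises were 2 each at Irf1 and Irf2, regulators of interferon-responsive genes, and 1 each at Irf9, Ifit3, Mx1, Rsad2 and Usp18, and both falls were at Irf8. An Irf2 peak (chromosome 8, 46844145 to 46845663, in the gene body) had 334 and 331 normalized reads with the Zfp219 guide, 176 and 207 with OTC and 193 and 199 with Dusp5 (log2 fold change 0.80, SE 0.15, limma adjusted p = 0.00013). Mx1, an antiviral GTPase, had 247 and 251 against 126 and 127 (0.97, SE 0.21, limma adjusted p = 0.00067), while the 2 Dusp5 libraries stood apart at 138 and 246. Irf1 had 261 and 225 against 88.9 and 153 (chromosome 11, 53785427 to 53787184; 1.05, SE 0.19, limma adjusted p = 4.6e-05) and missed the threshold without OTC replicate 1 (adjusted p = 0.062). Irf8 fell from 1268 and 1246 to 929 and 868 (-0.48, SE 0.10, limma adjusted p = 0.00048).

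Exhaustion factors and inhibitory receptors showed no single direction. Of all peaks 3.66% were higher and 4.56% lower, and of the inhibitory receptor peaks 1.59% and 4.76%. The exhaustion factors had 9 higher and 13 lower peaks of 201 (8 and 13 by both tools), 4.48% and 6.47%, and with 1 library left out 2 to 5 were lower (2 without Zfp219 replicate 2) and 4 to 8 higher, so that the higher then outnumbered the lower. Nr4a1 (2), Nr4a2 (1), Nr4a3 (1), Tox (2), Nfatc2 (2) and Irf4 (1) had falls alone. Id2 rose from 459 and 549 to 698 and 723 at a peak 2232 bp away (chromosome 12, 25098324 to 25099990; 0.50, SE 0.11, limma adjusted p = 0.0011), a call lost without OTC replicate 1. This was the 1 call among 9 Id2 peaks, and the promoter peak was not called (-0.09, SE 0.08, limma adjusted p = 0.60). Zeb2, which acts with T-bet in terminal effector cells, had 4 higher and 1 lower of 21. Of 63 inhibitory receptor peaks 1 was higher and 3 lower (1 and 2 by both tools), and with 1 library left out 0 or 1 was higher and 1 to 3 lower (1 without OTC replicate 1). Pdcd1, the gene of PD-1, fell at a peak 21748 bp away from 1311 and 1345 to 1017 and 992 (-0.40, SE 0.08, limma adjusted p = 0.00034), and Lag3 fell by 0.34 (limma adjusted p = 0.0044; 0.073 without OTC replicate 1). These calls were 1 of 9 Pdcd1 peaks, with a gene median of -0.08, and 1 of 4 Lag3 peaks, with a gene median of 0.25. Havcr2, the Tim-3 gene, had its strongest peak at the promoter with 928 and 929 against 825 and 934 (0.08, SE 0.08, limma adjusted p = 0.63). A weaker peak in the gene body was higher at 423 and 476 against 362 and 307 (0.43, SE 0.13, limma adjusted p = 0.023; 0.26 without OTC replicate 2 and 0.25 without Zfp219 replicate 2).

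Adenosine and prostaglandin genes had calls in both directions, 3 peaks of 54 higher and 4 lower (2 and 4 by both tools). The median was -0.00058, and the shares were 5.56% higher and 7.41% lower, against 3.66% and 4.56% of all peaks. With 1 library left out 1 to 3 were higher (1 without either Zfp219 replicate) and 0 to 3 lower (0 without Zfp219 replicate 1). Entpd1, the ectonucleotidase CD39, had 3 of 12 peaks higher. Its promoter peak (chromosome 19, 40659633 to 40662398) held 478 and 478 normalized reads with the Zfp219 guide against 300.1 and 341 with OTC and 384 and 388 with Dusp5 (log2 fold change 0.58, SE 0.12, limma adjusted p = 0.00035). Adora2a, an adenosine receptor, fell from 168 and 174 to 61.0 and 74.2 (-1.33, SE 0.31, limma adjusted p = 0.0023; 0.061 without Zfp219 replicate 1), the 1 call among its 7 peaks. Ptger2, a prostaglandin receptor with 2 of 10 peaks lower, fell from 758 and 699 to 493 and 532 (-0.51, SE 0.12, limma adjusted p = 0.0026; 0.062 without OTC replicate 1 and 0.067 without Zfp219 replicate 1). Nt5e, an ectonucleotidase that acts after CD39, had 0 called of 9. Cd38, a NAD-consuming ectoenzyme, had 1 lower peak of 5 (229 and 219 against 315 and 347; -0.56, limma adjusted p = 0.020), which was lost without each of the 4 libraries in turn (0.055 to 0.15).

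The remaining lists had these counts, beside 3.66% higher and 4.56% lower over all peaks. Higher and lower shares were 6.67% and 5% for residency and homing, and 2.48% and 4.13% for MAP kinase genes. They were 5.43% and 3.26% for costimulatory, 5.26% and 3.16% for senescence, and 0.917% and 5.50% for chromatin genes. Residency and homing genes had 8 higher and 6 lower of 120, with 3 of 5 Ccr2 peaks higher, and with 1 library left out 1 to 5 were higher (1 without Zfp219 replicate 1). At Ccr2, a receptor for inflammatory chemokines, a peak rose from 112 and 137 to 217 and 191 (log2 fold change 0.71, limma adjusted p = 0.0098; 0.16 without OTC replicate 1 and 0.14 without Zfp219 replicate 1). MAP kinase brakes and kinases had 3 higher and 5 lower of 121, with 1 higher and 1 to 3 lower when 1 library was left out (1 lower without Zfp219 replicate 2). Costimulatory genes had 5 higher and 3 lower of 92, then 0 to 3 higher (0 without Zfp219 replicate 1) and 1 to 3 lower (1 without Zfp219 replicate 2). Senescence and cell-cycle inhibitors had 5 higher and 3 lower of 95, then 1 to 5 higher (1 without Zfp219 replicate 1) and 0 to 2 lower (0 without OTC replicate 1 or Zfp219 replicate 2). Chromatin regulators had 1 higher and 6 lower of 109, then 0 or 1 higher and 3 to 7 lower (3 without OTC replicate 1). A peak of Traf1, an adaptor of costimulatory receptors, fell from 929 and 869 to 602 and 527 (log2 fold change -0.67, SE 0.11, limma adjusted p = 1.3e-05). It was the 1 call among 7 Traf1 peaks, whose median was -0.05. The promoter of Tnfrsf4, the costimulatory receptor OX40, fell from 810 and 752 to 573 and 516 (-0.52, SE 0.11, limma adjusted p = 0.00075; 0.050 without Zfp219 replicate 2). A peak of Ccnd2, a D-type cyclin, rose from 223 and 181 to 355 and 344 (0.79, SE 0.16, limma adjusted p = 0.00025). It was the 1 call among 7 Ccnd2 peaks, whose median was -0.05. A peak of the DNA methyltransferase Dnmt3a fell from 231 and 269 to 142 and 145 (-0.79, limma adjusted p = 0.0014). One of the demethylase Tet3 fell from 216 and 256 to 111 and 135 (-0.94, limma adjusted p = 0.00033). Lower calls were 2 of 14 Dnmt3a peaks, with a gene median of -0.16, and 1 of 8 Tet3 peaks, with a gene median of 0.08. Klrb1c, which marks NK cells and is also expressed by some T cells, rose from 575 and 543 to 813 and 794 (0.52, SE 0.10, limma adjusted p = 0.00018), the 1 call among 15 peaks of NK cell markers, while Ncr1 held 11.02 and 11.08 against 11.7 and 7.39.

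The genes with most called peaks in each direction were picked by those same calls, a choice that favours genes with many peaks. Over all peaks 4.56% were lower and 3.66% higher. Itpr1, a calcium channel of the endoplasmic reticulum, had 13 of 44 peaks lower, Rora, a nuclear receptor, 11 of 30, St6gal1 10 of 22, and Csf2 and Cd83, an activation marker, 8 of 12 and 8 of 14, with none of these genes' peaks higher. An Itpr1 peak in the gene body fell from 1132 and 1127 to 721 and 735 (log2 fold change -0.63, SE 0.10, limma adjusted p = 3.5e-06). The Rora peak of lowest adjusted p (chromosome 9, 69304122 to 69306123) fell from 1546 and 1549 normalized reads to 988 and 889, with Dusp5 at 1089 and 1106 (log2 fold change -0.72, SE 0.08, limma adjusted p = 6.0e-10). At Cd83 a peak 15774 bp away fell from 847 and 820.5 to 463 and 372 (-1.01, SE 0.14, limma adjusted p = 1.5e-07). Snx29, a sorting nexin, had 10 of 21 peaks higher and none lower, one of them from 15.1 and 2.46 to 66.1 and 69.1 (3.20, SE 0.43, limma adjusted p = 7.0e-08, edgeR adjusted p = 1.0e-06). The predicted gene Gm40363 had 7 of 8 higher, one of them from 1276 and 1323 to 1841 and 1896, with Dusp5 at 1490 and 1476 (0.52, SE 0.07, limma adjusted p = 1.2e-08). The largest rises by size, at Zfp800, Lcn12, Snx32, Snx29 and others, were weak peaks with an OTC library under its floor of 3 reads, and 7 of the 12 (Zfp800, Lcn12, Slc7a1, Ust, Morc3, Gfra1 and Nrf1) lost their call without 1 OTC replicate.

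The largest fall by size among all called peaks that fell was inside Thy1, the gene of the T cell surface protein Thy-1 (chromosome 9, 44046603 to 44047436). It held 567 and 668 normalized reads with the Zfp219 guide, 4884 and 4611 with OTC and 208 and 172 with Dusp5 (log2 fold change -2.95, SE 0.14, limma adjusted p = 9.8e-32). The values did not follow the state alone or the guide alone across the aged groups. In Tterm they were also lower with the Zfp219 guide, 125 to 135 against 829 to 959 with OTC. In Ttran they were 3153 to 3158 with the Zfp219 guide and 2944 to 3051 with OTC. In Tprog they were 191 to 219 with the Zfp219 guide and 122 to 135 with OTC. Another 13 peaks of Thy1 were not called, and its strongest, 11009 bp from the gene, had 1044 and 1013 against 1068 and 1092 (-0.07, limma adjusted p = 0.69).

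The targeted gene was not less accessible. The promoter peak of Zfp219 (chromosome 14, 52019226 to 52020740) had 1171 and 1269 normalized reads with its guide, 971 and 924 with OTC and 976 and 1126 with Dusp5 (log2 fold change 0.36, SE 0.09, limma adjusted p = 0.0025; 0.093 without Zfp219 replicate 2). The peak in the gene body had 170 and 188 against 121 and 137 (0.48, SE 0.23, limma adjusted p = 0.20), and the third, 1560 bp from the gene, 530 and 544 against 473 and 530 (0.10, SE 0.13, limma adjusted p = 0.72). Accessibility does not measure editing, so these values check no label. Of the 17 peaks of Dusp5, the other target of the study, 2 were lower and 1 higher with the Zfp219 guide, with a median of -0.05. The one of lowest adjusted p lay 36437 bp away (616 and 465 against 810 and 766; -0.56, SE 0.11, limma adjusted p = 0.00030; 0.13 without Zfp219 replicate 2).

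The next comparison asked whether the same sites moved in the other aged states, whose Zfp219 and OTC libraries are separate from those of Ttad. The labels do not say whether the states were sorted from the same mice. Agreement between states therefore cannot be taken as independent replication. Of the 2459 peaks lower in Ttad, 1494 (60.8%) were also called lower in Ttran, 760 (30.9%) in Tterm and 351 (14.3%) in Tprog, which are 33.4%, 56.2% and 45.0% of the lower calls there. The background of lower calls was 8.29% in Ttran, 2.51% in Tterm and 1.45% in Tprog, out of 14.2%, 3.57% and 2.56% called either way. None of them was called higher in Ttran or Tterm, and 11 were in Tprog. Of the 1973 higher peaks, 554 (28.1%) were also higher in Ttran, 180 (9.12%) in Tterm and 192 (9.73%) in Tprog, 17.4%, 31.6% and 32.1% of the higher calls there, against backgrounds of 5.92%, 1.06% and 1.11%. The opposite call was made at 8, 1 and 2. Falls were called in all 4 states at 191 peaks and in Ttad alone at 857, and rises at 26 and 1256. The median log2 fold change of the lower peaks was -0.57 in Ttran, -0.39 in Tterm and -0.30 in Tprog. A call missing in another state does not show that the effect was absent there.

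**Figure D3:**
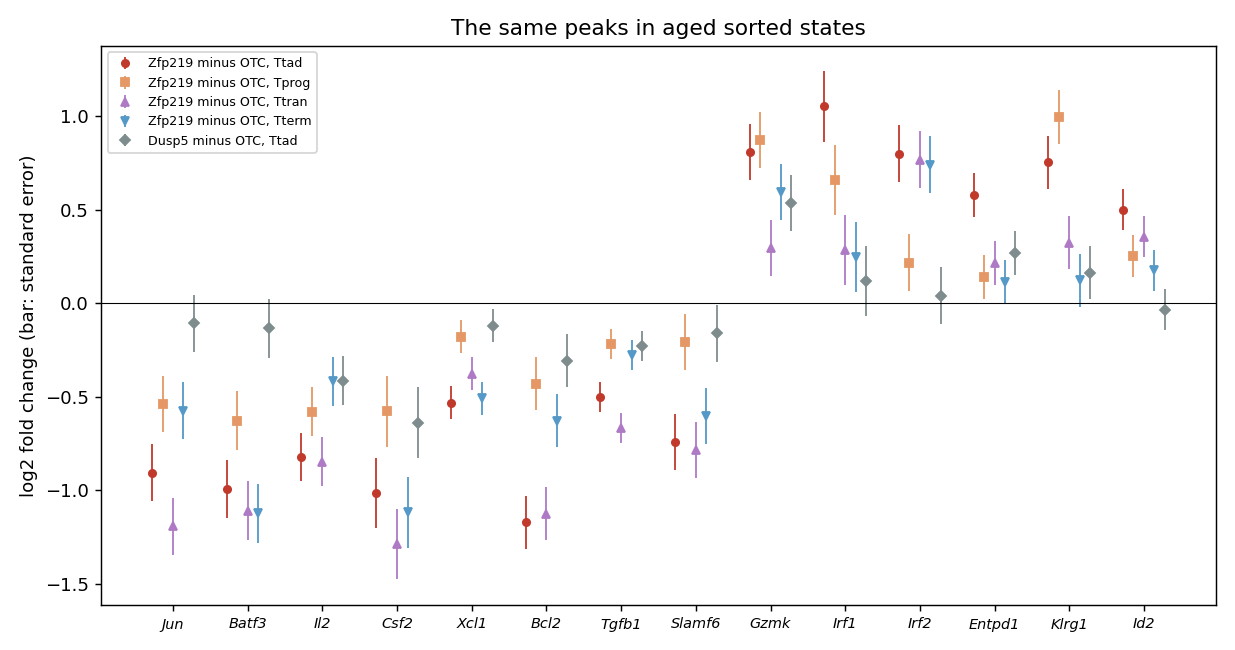
Log2 fold change with its standard error (vertical axis) for the same 14 peaks, in aged Ttad, Tprog, Ttran and Tterm for Zfp219 minus OTC and in aged Ttad for Dusp5 minus OTC, which shares the OTC Ttad libraries. The 4 Zfp219 values of each peak lie on the same side of 0, from -1.29 for Csf2 in Ttran to 1.05 for Irf1 in Ttad, while the Dusp5 values are nearest to 0 for Irf2 (0.04) and Id2 (-0.03).

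For the single peaks of Jun, Batf3, Gzmk and Entpd1, the difference between Ttad and the mean of the other states did not pass the test over all peaks. The Jun peak changed by -0.91 in Ttad, -1.19 in Ttran, -0.57 in Tterm and -0.54 in Tprog, all called by limma (adjusted p from 2.2e-09 to 0.032). The Batf3 peak was called lower in all 4 as well, by 0.63 to 1.12 in size. The Gzmk peak rose by 0.81 in Ttad, 0.87 in Tprog and 0.59 in Tterm and was 0.30 in Ttran (limma adjusted p = 0.19). The Entpd1 promoter, at 0.58 in Ttad, had 0.14, 0.21 and 0.11 in Tprog, Ttran and Tterm (limma adjusted p = 0.66, 0.23 and 0.73). The difference for Entpd1 between Ttad and the mean of the other states was 0.42.

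That test, the Zfp219 effect in Ttad minus its mean effect in Tprog, Ttran and Tterm, called 28 peaks (0.052%), 19 higher (0.0353%) and 9 lower (0.0167%), of which edgeR also called 12. The count ran from 6 to 66 under other settings and from 8 to 187 when 1 library was left out. The difference at Zfp652, whose promoter rise was 1.73 in Ttad and 0.38, 0.48 and 0.31 in Tprog, Ttran and Tterm, was 1.34 (SE 0.20, limma adjusted p = 3.4e-05, edgeR adjusted p = 0.00029). Bend4 rose in Ttad from 5.03 and 16.02 to 85.6 and 58.0 normalized reads with a difference of 2.54 (SE 0.46, limma adjusted p = 0.0025, edgeR 0.030), and its effects elsewhere were 0.28, 0.24 and 0.32. At the other peaks a missing call for a difference does not show that the effects were equal.

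Against the Dusp5 guide in the same state and hosts, 2595 peaks were higher (4.82%) and 2030 lower (3.77%) with the Zfp219 guide, together 8.59% of all peaks (2263 and 1916 by both tools). The split of these calls depended on scaling: rescaling on strong peaks, which shifts the median by -0.114, gave 939 higher and 3294 lower. The count fell to 1723 and 1676 without Zfp219 replicate 1 and 2, to 2214 without Dusp5 replicate 2 and to 2495 after thinning. The Dusp5 libraries held 8887064 and 7786663 reads in peaks, also fewer than the Zfp219 libraries. Of the peaks with the largest differences, those near Cfap97d2, Itgax, 1700017B05Rik and Tmem156 had 15.7 to 32.3 normalized reads on average with the Zfp219 guide and 1.47 to 5.01 with Dusp5, and those near Adra2c, Rhou, Baz2b and Ntng1 1.27 to 8.07 against 22.4 to 66.8; all are weak peaks. The comparisons with OTC share the control libraries and are given side by side: Dusp5 minus OTC called 653 peaks higher (1.21%) and 899 lower (1.67%), together 2.88%, with -0.11 at Jun, -0.13 at Batf3, -0.64 at Csf2, -0.31 at Bcl2, 0.54 at Gzmk and 0.04 at Irf2, where Zfp219 minus OTC had -0.91, -0.99, -1.01, -1.17, 0.81 and 0.80.

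Lists of peaks that separate sorted states were then taken from libraries outside the comparison, with the same p threshold and at least a doubling or halving. Of 738 peaks (1.37%) higher in Ttad than in Tterm with the Dusp5 guide in aged hosts, 74 fell with the Zfp219 guide and 14 rose (72 and 13 by both tools), with a median of -0.30. Of 759 (1.41%) lower in Ttad than in Tterm, 64 rose and 11 fell (52 and 9), with a median of 0.18. Of 3751 peaks (6.96%) higher in Tprog than in Tterm in young OTC cells 350 fell and 38 rose, median -0.31, and of 2187 (4.06%) lower there 157 rose and 65 fell, median 0.09. Peaks that separate Ttad from Tprog had calls in both directions: of 1014 (1.88%) higher in Ttad 51 fell and 52 rose, median -0.13, and of 492 (0.913%) lower 10 fell and 19 rose (8 and 12 by both tools), median 0.02. The shares over all peaks were 4.56% lower and 3.66% higher, with a median of 0.003.

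**Figure D4:**
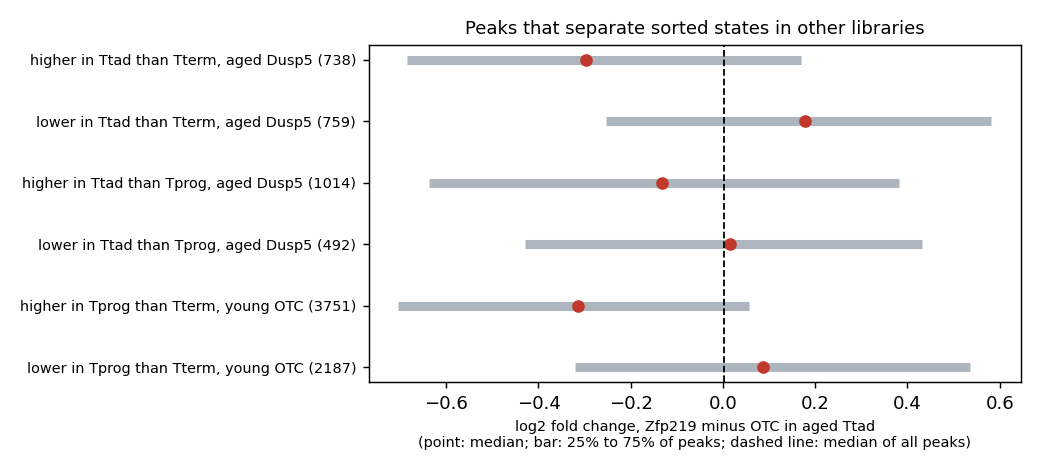
Log2 fold change of Zfp219 minus OTC in aged Ttad (horizontal axis) over 6 lists of peaks that separate sorted states in other libraries, with a point at the median and a bar from the 25% to the 75% quantile of the list's peaks. Peaks higher in Ttad than Tterm and higher in Tprog than Tterm have medians of -0.30 and -0.31, and the lists lower in those contrasts have 0.18 and 0.09.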

How the data were processed

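ATAC-seq was read as 50-base pairs from 48 libraries in 21 groups. The authors deposited 1 signal table of normalized reads in 53868 peaks, and the submitters' processing notes name Bowtie2 2.2.9, Picard 2.8.0, SAMtools 1.3.1, MACS2 2.1.1, DESeq2 1.28.1 and mm10, with no role or order. All of the deposited values (100%) gave whole reads within 0.01 after multiplying by a median-of-ratios factor. Peak coordinates are printed as deposited. A peak was given to a gene (RefSeq, GRCm38.p6) by its promoter window of 250 bases before to 50 after the start, then by gene body, then by the nearest gene within 100 kb.

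The test was limma 3.58.1 (R 4.3.3) with an intensity trend on log2(value + 1), fitted on all 48 libraries with a mean per group, and Benjamini-Hochberg adjustment over all peaks. A fold change is thus on the log2(value + 1) scale and understates changes of weak peaks. Alternatives were edgeR 4.0.16 and DESeq2 1.42.0 on whole reads, other pseudocounts, scalings, filters and sample sets, and each library left out. Thinning, and counting only peaks called by limma and edgeR, were added after the data were seen. In tests on simulated data limma called more unchanged peaks than edgeR did, mostly at low levels. An arm with 1 library left is assumed to vary like the other groups.

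The peaks named were the 12 largest rises and falls with a mean of at least 20 normalized reads, the 8 genes with most calls in each direction, up to 4 genes of lowest adjusted p per list, peaks of Zfp219, Havcr2, Slamf6, Dusp5 and Thy1, and the 4 largest in each direction for the other comparisons. The comparison and the lists were chosen with earlier results of these data known. Replicates differed beyond sampling noise (chi-square per degree of freedom 2.91 for Zfp219 and 3.04 for OTC). Some members of the lists are not reported here by name.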

Additional observations from a re-analysis of the deposited data

Results flagged for a closer look

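The Zfp219 effect in aged Ttad differed from its mean effect in aged Tprog, Ttran and Tterm at 28 peaks by limma (n = 2 libraries a group and state), and edgeR called 12 of them. The largest differences of log2 fold changes were 3.53 at a Gfra1 peak and 2.98 at a Ust peak, both weak, with 1 OTC Ttad library at 0 reads and not called by edgeR (adjusted p = 0.22 and 0.40). A Bend4 peak had 2.54 and an Nsmce1 peak 1.67, both called by edgeR (adjusted p = 0.030 and 0.044). Among lower differences, the Thy1 peak had -2.27 (edgeR adjusted p = 1.4e-38), and its OTC Ttad values of 4884 and 4611 stood above those of every other group. The Prkd3, Pde7b and Mrtfb peaks had -2.68, -1.90 and -0.997 and were not called by edgeR (adjusted p = 0.12, 0.12 and 0.067).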

How the results depend on the processing

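The count of 4432 called peaks for Zfp219 minus OTC ran from 3747 to 5237 under the settings that keep all libraries and reads, and every such setting gave more lower than higher calls. It was 2632 after thinning and 1745 to 3149 with 1 library left out. Without OTC replicate 2 the balance turned, with 1671 higher and 1478 lower. Rescaling on strong peaks gave 1553 higher and 2870 lower, and fitting only the groups compared 1234 and 2513. The 28 peaks for the difference between states became 11 with a pseudocount of 8, 14 after quantile normalization, 11 in the groups compared, 7 in the aged libraries, 13 by edgeR, 11 by edgeR with a filter, 66 by DESeq2, 12 after thinning, 12 where limma and edgeR both called, and 8 to 187 with 1 library left out. The 4625 peaks for Zfp219 minus Dusp5 became 3060 in the groups compared, 2495 after thinning and 1676 to 3165 with 1 library left out. With the replicate number as a block the counts were 4138, 6 and 4328, and same-numbered libraries did not deviate together (r = 0.0039 between Zfp219 and OTC, 0.0050 between Zfp219 and Dusp5). The cause of these changes was not tested, except that fewer libraries and reads went into the fits with 1 left out and the thinned fit. Of the alternatives for named peaks 2414 kept direction and side of the threshold, 188 lost the call, 3 gained it and none changed direction. Of the 131 named peaks that were called, 64 were called in all 4 fits with 1 library left out. Weak peaks are limited by depth: 3 reads are 5.03 and 3.70 normalized reads in the OTC libraries and 2.54 and 2.56 in the Zfp219 libraries.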
